A study of Homo sapiens with 20 samples.

Results

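Serine synthesis and the folate one-carbon pathway were represented by 8 genes, which were chosen by gene name. They were PHGDH, PSAT1 and PSPH of serine synthesis, SHMT1 and SHMT2, which exchange serine and glycine, and MTHFD1, MTHFD1L and MTHFD2, which interconvert the folate-bound one-carbon units. The 8 genes were taken from 27697 protein-coding and lncRNA genes tested, and all 8 passed the filter of at least 1 count in each condition. RNA-seq was available for NGP cells, a human neuroblastoma cell line, in 10 vehicle samples and 10 nutlin samples. The nutlin samples had received nutlin-3 as a racemic mixture at 8 µM and the vehicle samples ethanol, the solvent. Nutlin-3 occupies a pocket of MDM2, a ubiquitin ligase. All samples came from this 1 cell line, grown in 6-well vessels, and the duration of treatment is not given in the sources used here. Stranded libraries of poly(A) RNA were sequenced from both ends. The samples of a condition are called biological replicates in the study, but the labels do not say which cultures they came from.

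Serine is made from the glycolytic intermediate 3-phosphoglycerate by PHGDH, PSAT1 and PSPH, which act in that order. A serine hydroxymethyltransferase then moves one carbon of serine onto tetrahydrofolate and leaves glycine, in the cytosol through SHMT1 and in mitochondria through SHMT2. In mitochondria MTHFD2 and MTHFD1L carry the unit on to formate, and in the cytosol the trifunctional MTHFD1 makes formate into the folates used for purine and thymidylate synthesis. These enzymes are well studied in proliferating and cancer cells, and several of them are known targets of ATF4, a transcription factor of the amino acid response, and of MYC family factors.

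After nutlin, SHMT1, MTHFD1 and PHGDH were lower, each with every nutlin sample below every vehicle sample, whereas the 3 mitochondrial genes and the other 2 genes of serine synthesis had log2 fold changes between 0.02 and 0.24. SHMT1 fell 4.96-fold, MTHFD1 2.34-fold and PHGDH 2.23-fold. The MTHFD1 value covers only its matched transcripts, which do not include the canonical one. MTHFD2 rose 1.18-fold and MTHFD1L 1.08-fold. PSAT1, PSPH and SHMT2 did not pass 5% FDR. Thus 5 of the 8 genes were called significantly differentially expressed (SDE), 3 lower and 2 higher, beside 58.8% of all genes tested, 32.3% higher and 26.5% lower, and 80.2% of those with a mean of at least 1 CPM (read pairs scaled to the library size). The CPM ranges of the 10 and 10 samples did not overlap for 3 of the 8, all lower, beside 28.8% of all genes, 16.6% lower and 12.2% higher. Of the 15168 genes of at least 1 CPM, 4577 were lower and 2862 higher without overlap. The share of SDE calls among the 8 is thus near the background and says nothing about the group. The median log2 fold change (LFC, nutlin minus vehicle) of the 8 genes was 0.04, against 0.19 over all genes tested and -0.08 over the genes of at least 1 CPM. In cultured cells sampled in bulk, fewer cells that use a gene and less of its RNA per cell cannot be told apart.

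Libraries ranged from 14455477 to 19532971 estimated read pairs, and no 2 samples held identical values. MDM2, which served as a check of the labels, lay between 199 and 290 CPM in the vehicle samples and between 4797 and 6005 CPM in the nutlin samples, and CDKN1A between 18.8 and 54.9 CPM and between 1318 and 1833 CPM. The sympathoadrenal markers PHOX2A, HAND2, GATA3, TH, DBH and ISL1 were all present, at 123 CPM (DBH) or above in each vehicle sample and at 129 CPM (DBH) or above in each nutlin sample. Of 5 markers of other cells, PTPRC, EPCAM and PECAM1 stayed at or below 2.04 CPM in every sample and COL3A1 at or below 4.06 CPM, whereas COL1A1 went from between 6.97 and 10.9 CPM to between 29.5 and 40.8 CPM. Their part in the results below was not tested. Vehicle replicate 10 held the highest vehicle value of 5 of the 8 genes, and of 24.5% of the genes of at least 1 CPM. Nutlin replicate 4 held the lowest nutlin value of 4 of the 8, and of 15.3% of those genes.

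PHGDH, the dehydrogenase that commits 3-phosphoglycerate to serine synthesis, lies at chr1:119648411-119744218 on the plus strand (GENCODE release 44, GRCh38, as all gene positions here). In the vehicle samples its normalized expression ran from 234 to 296 CPM with a median of 258 CPM. The nutlin samples ran from 95.5 to 127 CPM with a median of 121 CPM. The 2 ranges lay far apart, and the lowest nutlin value belonged to replicate 4. The LFC was -1.16 (SE 0.05, adjusted p = 7.35e-19), and 4.99% of all genes had a lower LFC. With all matched transcripts of each gene summed, PHGDH had the highest mean level per length in the vehicle samples. In the nutlin samples it had the third highest, after MTHFD2 and SHMT2.

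PSAT1, the aminotransferase that follows PHGDH, lies at chr9:78297125-78330093 on the plus strand. It ran from 104 to 123 CPM in the vehicle samples (median 111 CPM) and from 104 to 128 CPM in the nutlin samples (median 117 CPM). The ranges overlapped almost entirely. Its LFC of 0.06 (SE 0.04, 95% interval -0.02 to 0.13, adjusted p = 0.221) did not pass 5% FDR, although it did in 5 of 12 alternative analyses, with LFC up to 0.13, among them the one without vehicle replicate 10 (0.10). PSPH, the phosphatase of the last step, lies at chr7:56011051-56051604 on the minus strand. It ran from 22.2 to 30.8 CPM (median 26.1 CPM) in the vehicle samples and from 24.8 to 31.0 CPM (median 28.5 CPM) in the nutlin samples, again with overlap. Its LFC of 0.12 (SE 0.05, adjusted p = 0.0549) missed 5% FDR and passed it in 9 of 12 alternatives, among them those without vehicle replicate 10 (0.17) and without nutlin replicate 4 (0.14). PSPH shares sequence with the pseudogene PSPHP1, to which 18.6% as many counts were assigned as to PSPH in the vehicle samples and 11.4% in the nutlin samples, so that the division of reads between both is uncertain. The other 13 pseudogenes named after one of the 8 genes held at most 0.371% of the parent's count.

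SHMT2, the mitochondrial serine hydroxymethyltransferase, lies at chr12:57229573-57234935 on the plus strand. It ran from 207 to 257 CPM in the vehicle samples (median 235 CPM) and from 196 to 262 CPM in the nutlin samples (median 242 CPM). The nutlin range enclosed the vehicle range. The LFC was 0.02 (SE 0.05, 95% interval -0.07 to 0.11, adjusted p = 0.771), and it passed 5% FDR in 0 of 12 alternatives. SHMT1, its cytosolic counterpart, lies at chr17:18327860-18363563 on the minus strand. It ran from 30.2 to 38.7 CPM in the vehicle samples (median 33.2 CPM) and from 5.28 to 8.59 CPM in the nutlin samples (median 6.88 CPM). No nutlin sample came near the lowest vehicle sample. Its LFC of -2.31 (SE 0.07, adjusted p = 5.50e-22) was the largest in size among the 8, and 0.747% of all genes had a lower LFC. Over the 12 alternatives it stayed between -2.52 and -2.23.

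MTHFD2, the mitochondrial dehydrogenase and cyclohydrolase, lies at chr2:74186172-74217565 on the plus strand. It ran from 236 to 266 CPM in the vehicle samples (median 247 CPM) and from 251 to 325 CPM in the nutlin samples (median 300 CPM). The ranges overlapped between 251 and 266 CPM, and nutlin replicate 4 was the lowest of its group. The LFC was 0.24 (SE 0.04, adjusted p = 3.30e-06) and passed the threshold in 12 of 12 alternatives. MTHFD1L, the mitochondrial formate synthetase, lies at chr6:150865679-151101887 on the plus strand. It ran from 61.8 to 74.9 CPM (median 66.9 CPM) in the vehicle samples and from 67.1 to 80.7 CPM (median 73.0 CPM) in the nutlin samples. The ranges overlapped over much of their width. Its LFC of 0.11 (SE 0.04, adjusted p = 0.0135) was not left once the effective length of its transcripts was taken as an offset (LFC -0.0015, SE 0.05, adjusted p = 0.982).

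MTHFD1, the cytosolic enzyme that joins 3 activities in 1 protein, lies at chr14:64388031-64463457 on the plus strand. It ran from 30.7 to 42.3 CPM in the vehicle samples (median 35.6 CPM) and from 11.9 to 18.7 CPM in the nutlin samples (median 15.4 CPM), with no overlap. The LFC was -1.23 (SE 0.07, adjusted p = 5.84e-15). These values rest on 15 transcripts that do not include the one the annotation marks as canonical, MTHFD1-220, whose current identifier was not matched in the files. The level of MTHFD1 is therefore given for this subset of transcripts and is not set against the levels of the other 7 genes below. The canonical PHGDH transcript was not matched either, but PHGDH-202, with a coding sequence 1596 bases long against 1599 in the canonical one, held most of that gene's counts.

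**Figure D1:**
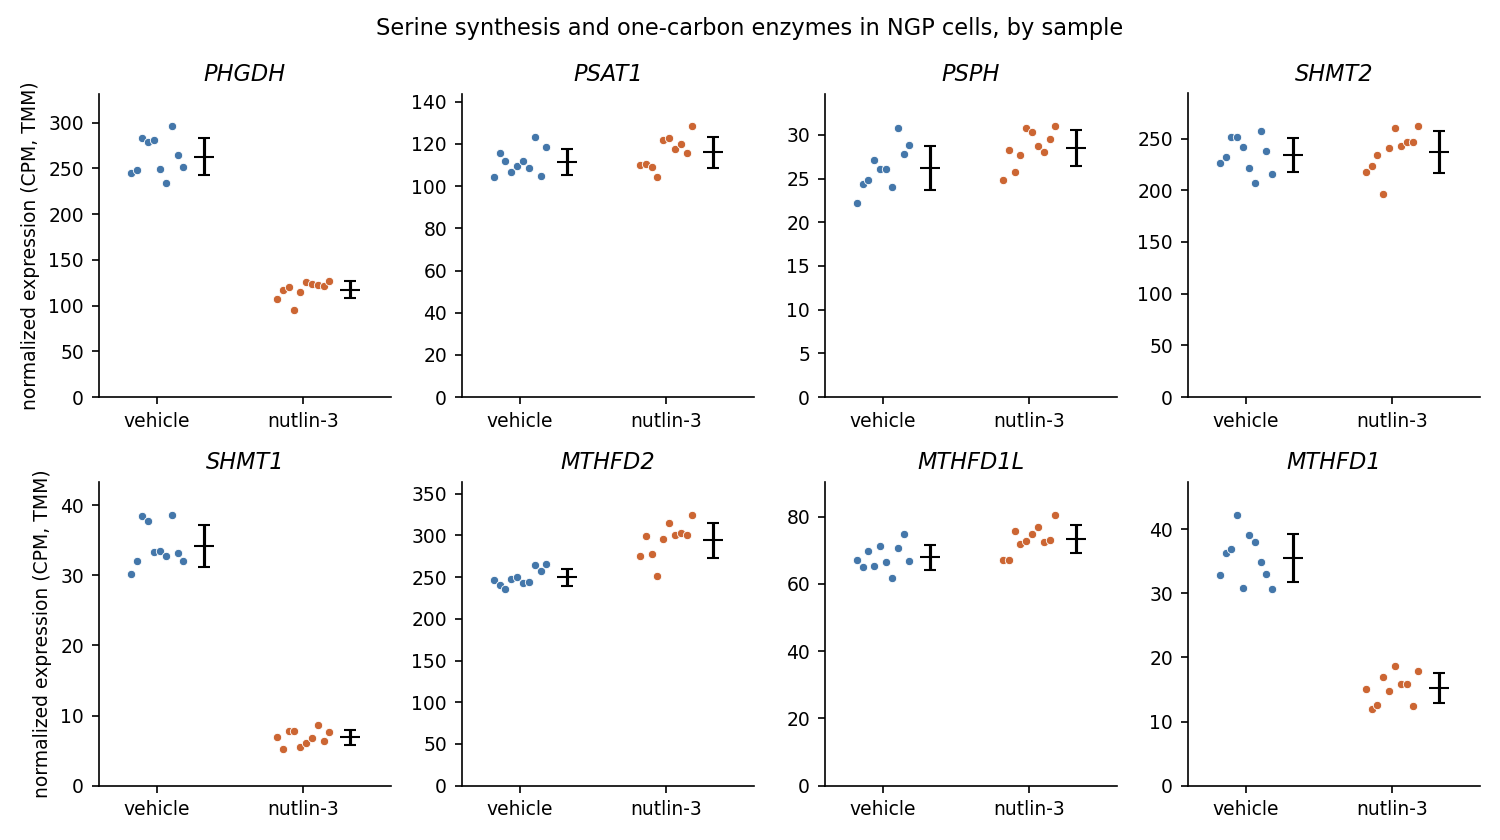
Normalized expression of the 8 genes in CPM (TMM-normalized, linear axis from 0) in the 10 vehicle samples (blue) and the 10 nutlin samples (orange), 1 point per sample, with the mean and SD of each group in black. PHGDH, SHMT1 and MTHFD1 have groups that do not overlap, for example 95.5 to 127 CPM against 234 to 296 CPM for PHGDH, and the other 5 genes have groups that do.

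Sequence upstream of the transcription starts was taken from RefSeq windows of GRCh38.p14 and is shown for genes that moved and for 1 that did not. The 250 bases before each start were searched on both strands for CACGTG (an E-box, the site of MYC family factors), TGATGNAA (the letters of an ATF4 element), CCAAT, and TTTGGCGC, TTTCCCGC, TTTCGCGC or TTTGCCGC (forms of an E2F element). Windows existed for PHGDH, PSAT1, SHMT1, MTHFD1 and MTHFD2 (1 each) and for MTHFD1L (4). PSPH and SHMT2 had none. All 6 genes with a window held CCAAT, MTHFD1L in 3 of its 4 windows and the others in their only window. The share over all 35114 windows was 32.0%, counted per window and not per gene. An E-box was found in MTHFD1 and in 2 windows of MTHFD1L (6.35% of all windows), the ATF4 letters in the same 2 windows of MTHFD1L (3.14%), and the E2F letters in 0 of the 9 windows (2.79%). CCAAT was present in windows of genes that fell (PHGDH, SHMT1, MTHFD1), of MTHFD2, which rose, and of PSAT1, which did not pass the threshold. The MTHFD1L windows with matches overlap, so its E-box, ATF4 letters and CCAAT are each the same site found again. No 2 different sites shared a base. Matches are given as letters only, and for PHGDH, MTHFD1 and MTHFD1L a stretch of 30 bases is shown because annotated exons reach into their windows. Exons covered 197 of the 250 bases for PHGDH, all 250 for MTHFD1 and 55 in each MTHFD1L window with an E-box. The sites printed for these genes overlap annotated exons, as does the CCAAT of MTHFD1, so they are not sequence upstream of all transcripts. Capitals mark the matched letters, and ATTGG is CCAAT read on the other strand.
SHMT1, chr17:18363564-18363800, minus strand: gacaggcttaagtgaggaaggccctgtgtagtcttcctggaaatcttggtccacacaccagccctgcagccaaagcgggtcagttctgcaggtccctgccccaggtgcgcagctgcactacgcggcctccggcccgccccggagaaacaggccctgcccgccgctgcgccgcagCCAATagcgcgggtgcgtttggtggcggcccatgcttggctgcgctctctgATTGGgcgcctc
PSAT1, chr9:78296875-78297124, plus strand: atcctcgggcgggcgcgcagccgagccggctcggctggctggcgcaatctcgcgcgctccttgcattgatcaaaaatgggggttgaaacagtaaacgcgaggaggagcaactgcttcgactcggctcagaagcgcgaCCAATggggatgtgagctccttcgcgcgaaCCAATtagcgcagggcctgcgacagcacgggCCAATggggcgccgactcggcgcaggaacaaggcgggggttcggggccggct
PHGDH, chr1:119711851-119711880, plus strand: gagtatttccgtCCAATcaaaaggagactg
MTHFD1, chr14:64388323-64388352, plus strand: tggccagtccctaagCACGTGggttgggtt
MTHFD1L, E-box, chr6:150866320-150866349, plus strand: cacgcccggctcCACGTGcgcagccggccg
MTHFD1L, ATF4 letters, chr6:150866346-150866375, plus strand: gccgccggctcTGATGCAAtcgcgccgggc
The MTHFD1 E-box ends 10 bases before the listed start, and the SHMT1 matches start 76 and 25 bases before it. In MTHFD1L the letters TGATGCAA, at chr6:150866357-150866364, span the first coding base of the transcript MTHFD1L-212, at position 150866359.

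Levels of different genes were compared as TPM, in which counts are scaled by effective length as well as by library size. The TPM of a gene was summed over its matched transcripts of any type. In the vehicle samples protein-coding transcripts held 100% of the PSAT1 counts, 99.6% for MTHFD1L, 98.1% for PHGDH and 82.1% for SHMT1. They held 59.7% for SHMT2, 54.1% for MTHFD2 and 45.8% for PSPH. The orders below hold for these sums and are not given for protein-coding transcripts alone. In the vehicle samples PHGDH was at 159 TPM ± 5.72 (SD, n = 10), SHMT2 at 149 TPM ± 6.89 (SD, n = 10) and MTHFD2 at 148 TPM ± 5.87 (SD, n = 10), and the ranges of neighbours in this order overlapped. Next came PSAT1 at 59.4 TPM ± 4.91 (SD, n = 10), MTHFD1L at 31.6 TPM ± 2.22 (SD, n = 10), PSPH at 23.8 TPM ± 1.75 (SD, n = 10) and SHMT1 at 20.5 TPM ± 1.29 (SD, n = 10). Of these only PSPH and SHMT1 overlapped. All 7 lay above at least 81.0% of the genes tested.

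In the nutlin samples the order, again over transcripts of any type, was MTHFD2 at 183 TPM ± 11.9 (SD, n = 10), SHMT2 at 151 TPM ± 11.6 (SD, n = 10) and PHGDH at 72.1 TPM ± 6.43 (SD, n = 10), with no overlap between neighbours. PSAT1 followed at 62.0 TPM ± 4.24 (SD, n = 10), overlapping PHGDH. MTHFD1L stood at 31.6 TPM ± 2.90 (SD, n = 10), PSPH at 25.3 TPM ± 1.81 (SD, n = 10) and SHMT1 at 4.20 TPM ± 0.751 (SD, n = 10), and of these MTHFD1L and PSPH overlapped. By these sums, SHMT1 went from overlapping PSPH to lying below the other 6 genes compared. PHGDH went from the level of SHMT2 to that of PSAT1. Of the 3 highest genes after nutlin, protein-coding transcripts held 51.1% of the counts of MTHFD2, 54.6% of SHMT2 and 96.3% of PHGDH. MTHFD2-205, annotated as a target of nonsense-mediated decay, is 1396 bases long against 4456 for the protein-coding MTHFD2-201. Each of its counts therefore weighs more in TPM.

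Ratios of TPM within a sample showed the same shifts. SHMT2 to SHMT1 ran from 6.44 to 8.27 in the vehicle samples (median 7.34) and from 28.8 to 53.0 in the nutlin samples (median 35.3), with no overlap. PHGDH to PSAT1 ran from 2.42 to 2.99 (median 2.71) and from 1.04 to 1.26 (median 1.17), also with no overlap. PSAT1 to PSPH, in contrast, ran from 1.97 to 2.999 and from 2.24 to 2.71, 1 range inside the other. SHMT2 to MTHFD2 went from between 0.918 and 1.13 to between 0.761 and 0.898. These ratios were not tested.

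**Figure D2:**
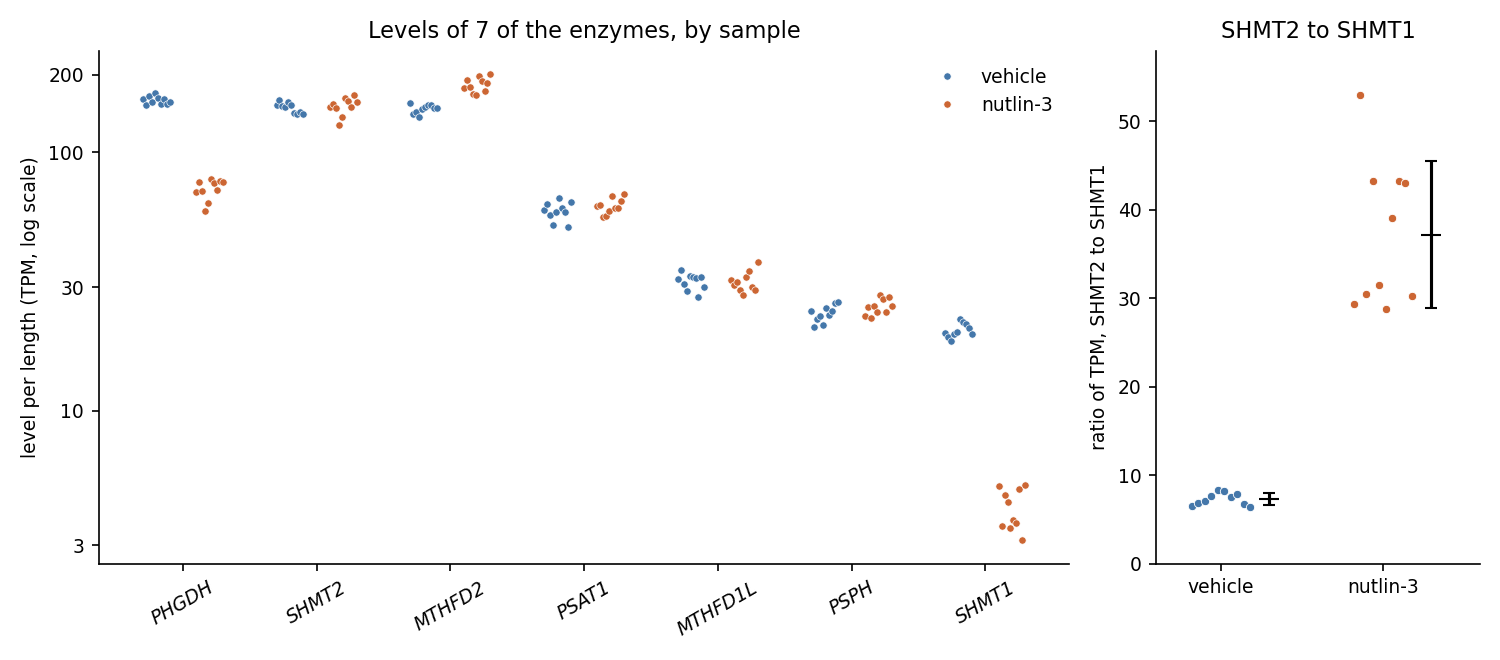
Left, level per length in TPM (log axis) of 7 genes in each vehicle sample (blue) and nutlin sample (orange), in the order of the vehicle means. MTHFD1 is not shown. The TPM of a gene is the sum over its matched transcripts of any type. Right, the ratio of the TPM of SHMT2 to that of SHMT1 in each sample (linear axis from 0) with mean and SD in black, 6.44 to 8.27 in the vehicle samples and 28.8 to 53.0 in the nutlin samples.

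By transcript, the 8 genes had 101 transcripts in the files, of which 44 had enough counts to be tested. Of these, 12 were higher, 16 lower and 16 not past 5% FDR, beside 48.7% of 51203 transcripts called, 25.9% higher and 22.9% lower. In the 16 samples whose replicate numbers both conditions share, 21 of these 28 calls were left, and 19 with the replicate number as a block. SHMT1-202, PSAT1-201, SHMT2-213, MTHFD1-209, PSPH-210, PHGDH-203 and SHMT2-232 were lost in both fits and MTHFD1-203 and MTHFD1-213 with the block alone. The totals of PHGDH and PSAT1 were each carried mostly by 1 transcript, and those of the other genes were more divided. In the vehicle samples the largest SHMT2 transcript, SHMT2-205, held 30.4% of its gene. MTHFD1-201 held 42.5% of the matched MTHFD1 counts. PHGDH-202 held 98.1% of the PHGDH counts in the vehicle samples and 96.0% in the nutlin samples, and PSAT1-202 held 94.2% and 91.0% of those of PSAT1. SHMT1-201 held 56.5% and 45.3%, and 4 of the 5 SHMT1 transcripts tested were lower and 0 higher. Of 8 MTHFD1 transcripts tested, 7 were lower. MTHFD2 was divided between MTHFD2-201, at 43.96% and 41.1%, and MTHFD2-205, annotated as a target of nonsense-mediated decay, at 41.5% and 43.2%. Both rose, with LFC of 0.22 (SE 0.05, adjusted p = 0.0011) and 0.38 (SE 0.05). The division of reads among overlapping transcripts was estimated by the authors' quantification, and its error is not in these values.

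Within PSPH, transcripts went in opposite directions. PSPH-202, which is protein-coding, ran from 35.8 to 177 counts in the vehicle samples (median 121) and from 173 to 265 counts in the nutlin samples (median 199), with an LFC of 0.95 (SE 0.24, adjusted p = 0.0021). PSPH-210, annotated as a target of nonsense-mediated decay although it holds a coding sequence of the same 675 bases, ran from 136 to 294 counts (median 183) and from 85.2 to 181 counts (median 138), with an LFC of -0.48 (SE 0.15, adjusted p = 0.0102, and 0.0822 in the 16 samples with shared numbers). Its share of the gene went from 47.1% to 29.3% and that of PSPH-202 from 27.5% to 46.0%. Neither passed the test of usage, which sets a transcript against the others of its gene (adjusted p = 0.395 and 0.242). With protein-coding transcripts alone, the LFC of PSPH was 0.58 (SE 0.08, adjusted p = 7.66e-07).

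Usage changed for 4 transcripts of the 8 genes, SHMT2-203, MTHFD1-213, PHGDH-203 and SHMT1-205, beside 8.59% of 45742 transcripts. SHMT2-203 had between 0 and 26.5 counts in the vehicle samples (median 12.4), with 3 samples at 0, and between 75.8 and 200 counts in the nutlin samples (median 106). The groups did not overlap, and the LFC was 3.28 (SE 0.54, adjusted p = 3.22e-05, adjusted p of usage 0.000643). It made up 0.338% of the SHMT2 counts in the vehicle samples and 3.11% in the nutlin samples. MTHFD1-213, with a retained intron, had an adjusted p of usage of 0.000105. It went from 1.33% to 5.87% of the counts of the matched MTHFD1 transcripts. PHGDH-203, which has no coding sequence defined, went from 0.574% to 1.70% (adjusted p = 0.00307), and SHMT1-205, also with a retained intron, from 2.68% to 8.56% (adjusted p = 0.0212). The counts were low. Their means went from 7.41 to 13.7 for MTHFD1-213 and from 23.1 to 31.4 for PHGDH-203. The mean of SHMT1-205 went down from 14.4 to 8.90 (LFC -0.62, SE 0.32, adjusted p = 0.117 in the transcript test), so only its share rose. In MTHFD1, PHGDH and SHMT1 these were thus noncoding transcripts of genes whose total fell.

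SHMT2 is known for a mitochondrial protein and for a shorter one that starts downstream, lacks the targeting sequence and stays outside mitochondria. Transcripts with a full-length coding sequence and the upstream start, at position 57229779 of chromosome 12, were SHMT2-201 and SHMT2-232. They held 23.3% ± 2.91 (SD, n = 10) of the SHMT2 counts with vehicle and 16.2% ± 4.91 (SD, n = 10) after nutlin. Those with the downstream start, at position 57230833, were SHMT2-202, SHMT2-203 and SHMT2-205, with 35.2% ± 4.09 (SD, n = 10) and 36.4% ± 5.02 (SD, n = 10). Both shares overlapped between the groups. SHMT2-232 was lower with an LFC of -0.44 (SE 0.18, adjusted p = 0.0468, and 0.0798 in the 16 samples with shared numbers), and SHMT2-226, annotated for decay, was higher with 0.47 (SE 0.09).

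MTHFD1L also had 2 coding starts. MTHFD1L-212, which starts downstream, held 71.7% ± 5.71 (SD, n = 10) of the counts with vehicle and 61.6% ± 10.7 (SD, n = 10) after nutlin. MTHFD1L-203 and MTHFD1L-211, which start upstream, held 15.0% ± 6.50 (SD, n = 10) and 29.4% ± 11.4 (SD, n = 10), with overlap. MTHFD1L-203 ran from 42.9 to 157 counts in the vehicle samples (median 97.2) and from 153 to 292 counts in the nutlin samples (median 225), and its LFC was 1.20 (SE 0.18), whereas that of MTHFD1L-212 was -0.03 (SE 0.10, adjusted p = 0.823). The change in usage of MTHFD1L-203 did not pass 5% FDR (adjusted p = 0.0632).

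**Figure D3:**
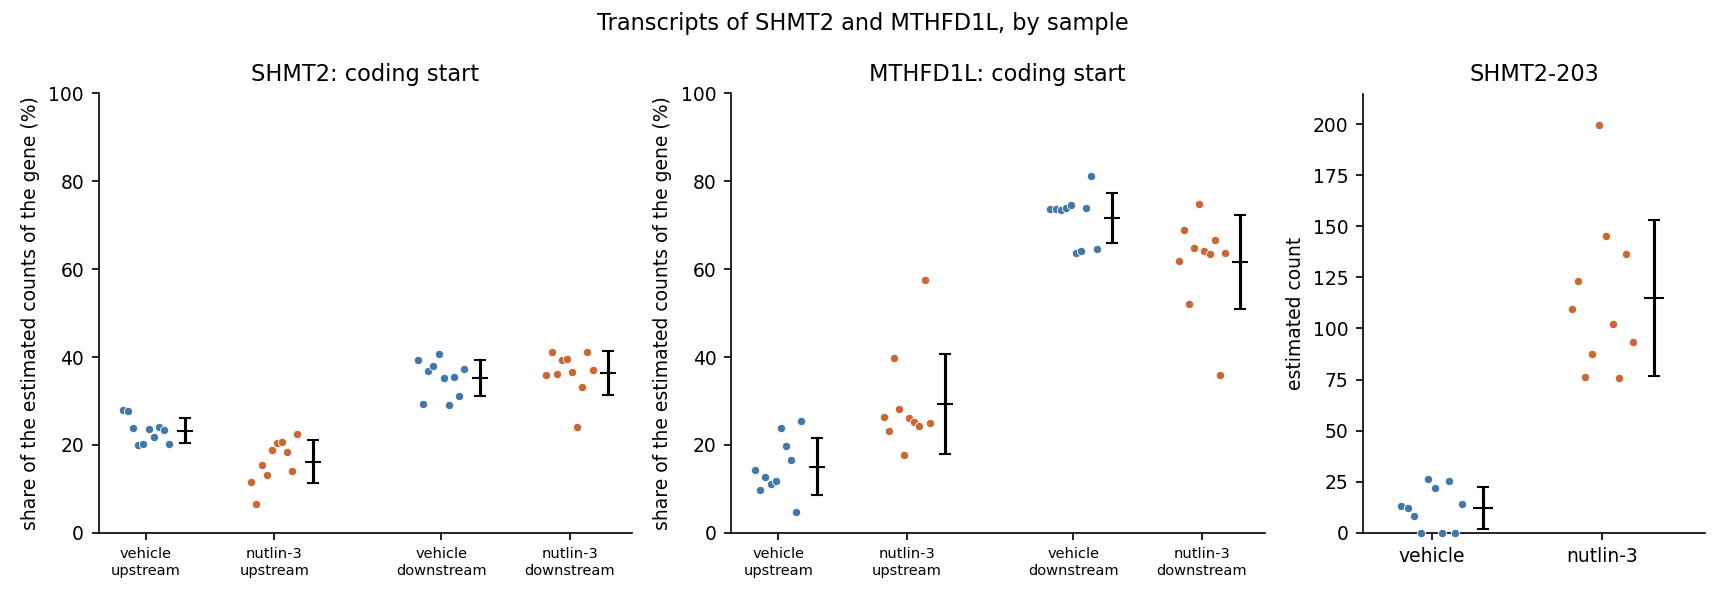
Left and middle, share of the estimated counts of SHMT2 and of MTHFD1L (%) held by full-length coding transcripts with the upstream and the downstream coding start, 1 point per vehicle sample (blue) or nutlin sample (orange), with mean and SD in black. Right, estimated count of the transcript SHMT2-203, which lies between 0 and 26.5 in the vehicle samples and between 75.8 and 200 in the nutlin samples.

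The genes whose pattern over the 20 samples was most like that of SHMT1 were UBE2C, TRIP13, RAI14, WDHD1 and RACGAP1. The measure was the root mean square difference of log2 CPM centred on the vehicle mean, which was 0.154 for UBE2C and 0.179 for RACGAP1, among 15167 genes of at least 1 CPM. Their LFC lay between -2.33 (RAI14) and -2.18 (RACGAP1). This likeness follows from the measure, since a difference in LFC enters it through every nutlin sample. The ranks given next depend on the LFC in the same way. By the same measure MTHFD1 ranked at 724 and PHGDH at 783, and the other 5 genes of the group between 8354 and 10285.

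Related genes were followed in 7 lists, in which 60 of 67 measured genes were SDE, beside the 58.8% of all genes and 80.2% of those of at least 1 CPM. In the list of folate supply, 3 of 9 genes were higher, 4 lower and 2 not past 5% FDR, with a median LFC of -0.05. GGH, which trims the glutamate tail of folates, ran from 45.0 to 64.5 CPM in the vehicle samples and from 7.94 to 11.2 CPM in the nutlin samples (LFC -2.41, SE 0.07). The uptake carrier SLC19A1 was lower (-0.71, SE 0.05) and the proton-coupled transporter SLC46A1 higher (0.96, SE 0.06). FOLR2, with a mean below 1 CPM, had an LFC of 4.65 and was named after its values were seen.

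Among 10 other folate one-carbon enzymes, 4 were higher, 5 lower and 1 not past the threshold (median LFC -0.07). MTHFD2L, the relative of MTHFD2, was lower at -0.28 (SE 0.06), with overlap of 14.8 to 19.9 CPM after nutlin and 19.3 to 26.2 CPM with vehicle. ALDH1L2, the mitochondrial formyltetrahydrofolate dehydrogenase, was higher (0.49, SE 0.06), as were its cytosolic relative ALDH1L1 (0.86, SE 0.21), which lay near 1 CPM, and FTCD (1.31, SE 0.17). GART, of purine synthesis, was lower (-0.54, SE 0.04). TYMS, thymidylate synthase, ran from 64.2 to 80.4 CPM in the vehicle samples and from 48.8 to 69.9 CPM in the nutlin samples. Its LFC of -0.17 (SE 0.06, adjusted p = 0.00907) did not hold without vehicle replicate 10 (-0.12, adjusted p = 0.0540).

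Of the 4 genes of the glycine cleavage system, AMT was higher (0.67, SE 0.08), GCSH (-1.01, SE 0.05) and DLD (-0.56, SE 0.04) were lower, and GLDC, its decarboxylase, did not pass 5% FDR (-0.22, SE 0.14), with a median LFC of -0.39. In the methionine cycle and transsulfuration, 5 of 12 measured genes were higher, 6 lower and 1 not past the threshold (median -0.03). MAT1A was not measured. The methionine synthase MTR (-0.71, SE 0.04), MAT2B (-0.98, SE 0.06) and AHCYL1 (-0.50, SE 0.03) were lower, and CTH, the last enzyme of transsulfuration, was higher (0.85, SE 0.07).

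In the list of serine and glycine transport and use, 5 of 14 measured genes were higher, 7 lower and 2 not past the threshold (median -0.13). TDH was not measured. The neutral amino acid transporter SLC1A4 (0.87, SE 0.09), the glycine transporter SLC6A9 (1.11, SE 0.05) and SDSL (0.88, SE 0.16) were higher. SFXN1, the mitochondrial serine carrier, was lower (-0.52, SE 0.04), as were SFXN2 (-0.93, SE 0.04), the serine racemase SRR (-0.73, SE 0.08) and GCAT (-0.91, SE 0.07).

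The list of the ATF4 amino acid response moved mostly one way. Of its 15 genes, 14 were higher, beside 32.3% of all genes tested, and 1 was lower. The median LFC was 1.17 against 0.19 over all genes. For 11 genes all nutlin samples lay above the vehicle samples. This held for 12.2% of all genes, and for 2862 of the 15168 genes of at least 1 CPM. The 11 include CHAC1 (3.99, SE 0.31), NUPR1 (4.03, SE 0.09), TRIB3 (3.61, SE 0.07), SLC7A11 (3.08, SE 0.11), ATF5 (2.35, SE 0.05) and DDIT3 (2.24, SE 0.09). ASNS, the asparagine synthetase, ran from 86.5 to 113 CPM in the vehicle samples and from 162 to 223 CPM in the nutlin samples (LFC 1.09, SE 0.05). CEBPB (1.33, SE 0.07), SARS1 (1.17, SE 0.05), SLC7A5 (0.90, SE 0.05) and SLC3A2 (0.57, SE 0.04) were higher too. AARS1 was the 1 lower gene (-0.11, SE 0.04). Of the 8 enzymes, PHGDH, PSAT1, SHMT2 and MTHFD2, which are often counted with this response, had LFC of -1.16, 0.06, 0.02 and 0.24 in the same samples. Vehicle replicate 10 held the highest vehicle value of 12 of the 15 genes and nutlin replicate 4 the lowest nutlin value of 13.

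Of 4 regulators, ATF4 (0.42, SE 0.05), MYC (2.61, SE 0.27) and NFE2L2 (0.57, SE 0.05) were higher and MYCN lower (-0.41, SE 0.04). MYCN was the more abundant of both MYC genes, from 3467 to 4243 CPM in the vehicle samples and from 2586 to 3000 CPM in the nutlin samples, whereas MYC ran from 0.306 to 0.902 CPM and from 0.940 to 6.12 CPM. The canonical ATF4 transcript was not matched, but 3 others were.

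**Figure D4:**
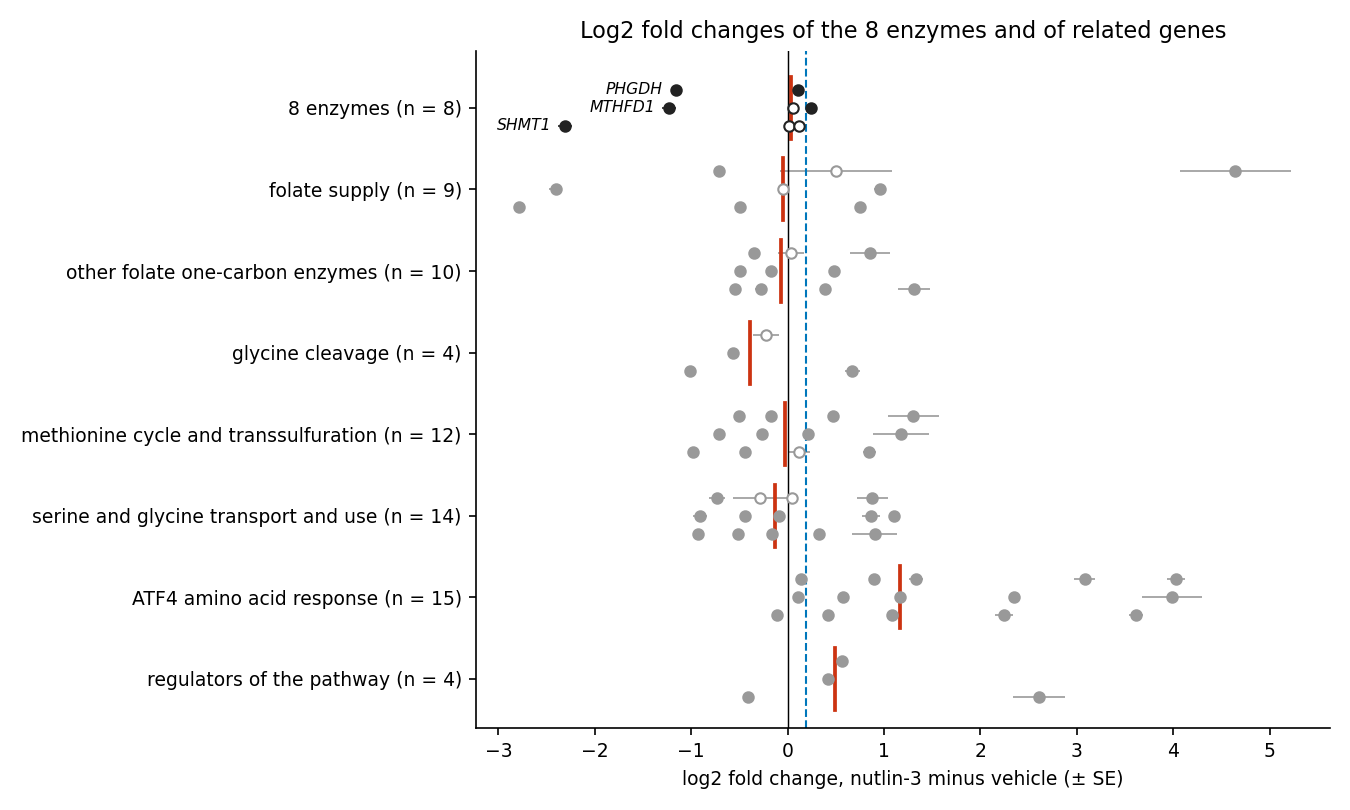
Log2 fold change (nutlin minus vehicle, with SE as horizontal bars) of the 8 enzymes (black) and of the genes of the 7 lists (grey), 1 point per gene, filled where past 5% FDR. Red bars are the median of each set, 0.04 for the 8 enzymes and 1.17 for the ATF4 amino acid response, and the dashed line is the median of all genes tested, 0.19.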

How the data were processed

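RNA-seq of 20 NGP samples was re-analysed. Per the labels, the condition and the replicate number were taken from the sample titles. The authors quantified the reads with kallisto 0.42.4 (submitters' processing notes) on GRCh38 transcripts of Ensembl release 85 and deposited, for each of 198968 transcripts, an estimated count without normalization, an effective length and a TPM. The TPM values deposited by the authors are estimated counts scaled by effective length and library size. They were used for levels only.

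Transcripts were matched to GENCODE release 44 by identifier without version. Of these, 191106 (96.0%) were matched and 7862 were left out, which held between 3.22% and 3.34% of the counts of the vehicle samples and between 4.05% and 4.29% of those of the nutlin samples. Estimated counts were summed by gene and rounded. Testing covered protein-coding and lncRNA genes whose counts summed to 1 or more per condition, with edgeR 4.0.16 in R 4.3.3 (quasi-likelihood F-test, TMM, condition as the only term, Benjamini-Hochberg over all 27697 genes, 5% FDR). Transcripts that passed filterByExpr were tested in the same way, and usage with diffSpliceDGE. The SE was the LFC divided by the root of the F statistic. CPM used the TMM library sizes. The fits were tested on simulated data with known changes in 200 genes.

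The members and lists were chosen with earlier results of these data known. From the lists, genes past 5% FDR with an absolute LFC of at least 0.5 and a mean of at least 1 CPM were named, with MTHFD2L, GLDC, TYMS, ALDH1L1, ALDH1L2 and SLC19A1 whatever their values. Some further genes that the rule names or that served as markers are counted but not reported here. Also named were the 5 genes nearest to the member with the largest LFC and transcripts with at least 5% of a gene's counts. ATF4, MYCN, AARS1, FOLR2, and, among transcripts, SHMT2-203 and PHGDH-203 lie outside the rule and were named after their values were seen. p-values set the difference between the conditions against the spread between these samples, which are taken as independent.

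Alternatives were DESeq2 size factors, DESeq2 1.42.0, limma 3.58.1 (voom), filterByExpr, no filter, the replicate number as a block, an effective length offset, protein-coding transcripts only and 1% FDR. The transcript fit in the samples of the block but without it was added after the data were seen. Figures were drawn with Python 3.11.15 and matplotlib 3.10.9.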

Additional observations from a re-analysis of the deposited data

Results flagged for a closer look

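Of 96 groups of 10 samples checked, 9 held a sample whose gap to the nearest other was, as a share of the whole range, above Dixon's critical value for 10 samples. Chance flags about 1 in 20 groups. None of the 8 enzymes was among them. Nutlin replicate 4 stood apart in 4 genes, low for SLC1A4 (8.83 CPM, next 12.9 CPM), SLC3A2 (159 CPM, next 185 CPM) and NFE2L2 (53.0 CPM, next 63.1 CPM) and high for MTR (75.0 CPM, next 68.6 CPM). Vehicle replicate 10 stood apart in 3 genes, high for TYMS (80.4 CPM, next 71.2 CPM), SLC3A2 (152 CPM, next 134 CPM) and SARS1 (179 CPM, next 148 CPM). The remaining samples that stood apart were vehicle replicate 4, low for SLC7A5 (213 CPM, next 241 CPM), and nutlin replicate 9, low for FTCD (0.927 CPM, next 1.67 CPM).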

How the results depend on the processing

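PHGDH, SHMT1, MTHFD1 and MTHFD2 kept their direction and their side of the threshold in all 12 alternatives, with LFC from -1.16 to -1.08, -2.52 to -2.23, -1.39 to -1.03 and 0.20 to 0.32. PSAT1 passed 5% FDR with DESeq2 size factors (LFC 0.1045), DESeq2 (0.1044), filterByExpr (0.1337) and protein-coding transcripts only (0.0987). PSPH passed it with DESeq2 size factors and DESeq2 (0.1684 in both), filterByExpr (0.1977), no filter (0.1424) and protein-coding transcripts only (0.5828). With filterByExpr the LFC of each of the 8 enzymes lay above that of the main fit. SHMT2, for example, was at 0.0952 against 0.0178 and PHGDH at -1.0826 against -1.1601. The same held with DESeq2 size factors (SHMT2 0.0661, PHGDH -1.1119). Small LFC thus depend on the filter and the normalization. SHMT2 changed sign with protein-coding transcripts only (-0.068) and MTHFD1L with the effective length offset (-0.0015), while MTHFD1L missed 1% FDR (0.1105). With protein-coding transcripts only, the mean ratio of SHMT2 to SHMT1 was 5.28 with vehicle and 29.2 after nutlin (7.31 and 37.2 with all transcripts). TYMS lost its call in 6 alternatives. The cause was not tested. The number of the 8 enzymes called ranged from 4 to 7 and of list genes from 53 to 60. The 8 replicate numbers shared by the conditions did not show as pairs in the values. Correlations of deviations lay between -0.037 and 0.071, 0 over 0.1, and 1 nutlin sample was closest to its own number. Whether samples of the same number were treated together is not given, and these correlations cannot decide it. With the replicate block in the 16 samples concerned, 6 of the 8 enzymes were called, PSPH with an LFC of 0.1701 (0.1678 in the same samples without the block), and 19 of 44 transcripts in place of 28 (21 in the same samples without the block, a fit added after the data were seen). After the data were seen, nutlin replicate 4 and vehicle replicate 10 were left out in turn. PSAT1 then gave 0.0848 and 0.0952, the latter past 5% FDR, and PSPH 0.1373 and 0.1699, both past it. Limits are the matching of transcripts to a later annotation, the absence of the canonical MTHFD1 transcript, and SHMT1 and MTHFD1 transcripts of few counts.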
